A study of Mus musculus with 40 samples.

Results

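The genes described here are Vegfa, the vascular endothelial growth factor A ligand, and 7 genes of the hypoxia-inducible factor (HIF) system: the factors Hif1a and Epas1, the oxygen sensors Egln1 and Egln3, and the hypoxia-induced genes Bnip3, Adm and Ankrd37. They were taken by symbol from the gene count table, in which all 8 were found among 26792 symbols. Messenger RNA was measured in hypothalami of mice that all carry the Aldh1l1 eGFP-L10a transgene, in which the Aldh1l1 promoter, active in astrocytes, drives a ribosomal protein with a green fluorescent tag. Tagged ribosomes were pulled down with their messages (translating ribosome affinity purification), and a pull-down and a supernatant library were made under each of 20 sample numbers. The orchiectomised HFD group, labelled GDX or ORX, had its testes removed and ate a high-fat diet (HFD) and gave 7 samples. The sham HFD group had a sham operation and the same diet and gave 6 samples. The sham chow group had a sham operation and ate chow and gave 7 samples. Diets lasted 4 weeks. Orchiectomy was compared on HFD only, since mice without testes on chow were not among the groups. The labels do not say whether 1 sample number is 1 mouse or a pool, so the spread behind each p-value is that of the samples and may be technical in part. The transgene marks cells with Aldh1l1 promoter activity, and the supernatant is what the pull-down left behind, not a population without astrocytes.

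HIF-alpha proteins, encoded by Hif1a and Epas1, are made all the time and destroyed when oxygen is present, because the prolyl hydroxylases encoded by Egln1 and Egln3 mark them for degradation. When oxygen falls, the proteins persist, pair with a partner subunit and bind short DNA motifs at target genes, among them Vegfa, Bnip3, Adm, Ankrd37 and Egln3 itself. The control acts mainly on the protein, so the message levels given here do not measure HIF activity. In the brain, astrocytes are a known source of Vegfa, which acts on endothelial cells.

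Promoters of the genes are shown because HIF binds the core letters ACGTG or GCGTG, and so that the ligand, a sensor and 3 further targets can be compared. RefSeq promoters (GRCm38.p6, 250 bases before to 50 after an annotated start) were found for 7 of the 8 genes. Epas1 had no entry. Capitals mark ACGTG and GCGTG on either strand, that is also CACGT and CACGC, and overlapping matches run together. The first of the Vegfa starts is shown.
Vegfa, chr17:46032328-46032627, minus strand: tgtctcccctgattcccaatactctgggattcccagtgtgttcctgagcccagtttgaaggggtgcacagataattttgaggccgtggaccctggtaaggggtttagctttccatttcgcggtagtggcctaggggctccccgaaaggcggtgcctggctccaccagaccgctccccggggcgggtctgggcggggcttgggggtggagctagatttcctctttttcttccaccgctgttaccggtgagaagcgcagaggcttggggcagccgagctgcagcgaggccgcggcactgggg
Egln1, chr8:124949205-124949504, minus strand: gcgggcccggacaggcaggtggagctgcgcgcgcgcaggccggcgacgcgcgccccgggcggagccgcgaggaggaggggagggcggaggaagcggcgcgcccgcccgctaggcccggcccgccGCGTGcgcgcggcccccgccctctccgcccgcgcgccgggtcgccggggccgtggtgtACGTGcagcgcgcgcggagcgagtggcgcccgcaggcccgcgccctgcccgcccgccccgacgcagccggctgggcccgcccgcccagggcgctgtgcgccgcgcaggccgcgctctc
Bnip3, chr7:138909457-138909756, minus strand: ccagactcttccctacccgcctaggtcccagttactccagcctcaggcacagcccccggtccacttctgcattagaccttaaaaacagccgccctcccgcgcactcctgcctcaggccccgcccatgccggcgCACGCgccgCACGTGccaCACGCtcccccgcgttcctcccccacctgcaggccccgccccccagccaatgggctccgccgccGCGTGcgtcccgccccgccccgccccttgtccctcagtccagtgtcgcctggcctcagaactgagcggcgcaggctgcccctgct
Adm, chr7:110627407-110627706, plus strand: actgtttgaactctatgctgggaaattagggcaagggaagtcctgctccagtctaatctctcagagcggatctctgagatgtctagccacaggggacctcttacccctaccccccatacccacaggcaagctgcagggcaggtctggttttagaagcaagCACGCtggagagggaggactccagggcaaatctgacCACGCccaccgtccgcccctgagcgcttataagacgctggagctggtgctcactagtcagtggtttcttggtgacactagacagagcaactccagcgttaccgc
Ankrd37, chr8:45999801-46000100, minus strand: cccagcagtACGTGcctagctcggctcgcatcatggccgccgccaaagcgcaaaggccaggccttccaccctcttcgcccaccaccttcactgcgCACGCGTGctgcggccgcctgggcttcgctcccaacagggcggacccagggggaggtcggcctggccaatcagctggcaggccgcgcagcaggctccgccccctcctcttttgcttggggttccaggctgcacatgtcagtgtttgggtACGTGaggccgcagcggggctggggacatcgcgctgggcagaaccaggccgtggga
Counted per gene over any annotated start, at least 1 of the 2 motifs stood in a promoter of all 7 genes, and ACGTG in 6 of them. Of 32851 promoters of 300 bases, 43.8% held either motif, 19.6% held ACGTG and 32.4% held GCGTG. These shares are per promoter and not per gene. GC content, 54.7% (Egln3) to 86% (Egln1) in the promoters of the 7 genes, was not matched, so no enrichment is read from these counts. The first Vegfa promoter held neither. Vegfa is counted only through a second annotated start, at chr17:46025114-46025413, which held 1 of each and lies inside the gene. The Bnip3 promoter held the palindrome CACGTG at position -108, where ACGTG reads on both strands, and 3 copies of GCGTG. The palindrome is also the core E-box, and 7.15% of all promoters held it. The Ankrd37 promoter held ACGTG at -241 and -6 and GCGTG at -155 and -152. Its window lies inside the gene span given below and not at the outer end of that span. The Adm promoter held GCGTG at -90 and -54 and no ACGTG, and the Egln1 promoter held ACGTG at -68 and GCGTG at -126. A match is a description of letters and not a measured site.

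The libraries held about 7714830 to 20792200 counts in the pull-downs and 8739280 to 12931900 counts in the supernatants. Genes encoded by mitochondrial DNA took 0.643% to 1.63% of the counts in pull-downs and 19.2% to 27.8% in supernatants. Values are CPM, counts scaled to a common library size after TMM normalization. The kit reads 1 tag near the 3' end of each message, so CPM was not divided by gene length. The pull-down was checked with Aldh1l1, whose level was 122 to 207 CPM in pull-downs and 1.64 to 15.0 CPM in supernatants, a log2 fold change of 4.89 ± 0.24 (SE). All 14 astrocyte markers were higher in the pull-downs, and all 12 neuronal markers and all 8 oligodendrocyte markers were lower. Mean marker sums were higher in pull-downs than in supernatants for mural cells (210 against 75.6 CPM) and oligodendrocyte precursors (412 against 178 CPM). So were those of tanycytes and ependymal cells (334 against 116 CPM) and, with overlapping ranges, fibroblasts (117 against 90.4 CPM). Those of microglia (67.2 against 280 CPM) and red blood cells (1112 against 3331 CPM) were lower. None of the marker lists had a gene at 0 in all libraries of a fraction, and their summed levels were 301 to 866 CPM for neurons and 776 to 1361 CPM for oligodendrocytes in pull-downs, against 4733 to 6404 CPM and 7320 to 10989 CPM in supernatants. Endothelial markers were also higher in the pull-downs (10 of 11), and 5 pull-downs stood apart with 856 to 1749 CPM summed over them, against 219 to 463 CPM in the other 15. Those 5 were orchiectomised samples 6, 11 and 22, sham HFD sample 1 and sham chow sample 8. The same 5 also held more neuronal markers, 518 to 866 CPM against 301 to 499 CPM in the other 15. Their mural cell markers summed to 235 to 448 CPM, against 119 to 210 CPM. They are called rich in endothelial markers below, but endothelial message was not the only one raised in them. Their supernatants held 3328 to 3991 CPM of astrocyte markers, and the other 15 held 1154 to 2670 CPM. In the pull-downs of samples 1, 8, 11 and 22 the ribosomal-repeat gene Gm42418 took over 10% of the counts. In bulk libraries, fewer cells of a type and less RNA per cell cannot be told apart.

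Between the fractions the 8 genes did not move as 1 block. Both factors, both sensors and Vegfa were higher in the pull-downs, with Epas1 first at 9.84-fold, while Bnip3, Adm and Ankrd37 were lower. HIF targets stood on both sides, since Vegfa and Egln3 are targets too. All 8 passed the test of pull-down against supernatant over 20 and 20 libraries (edgeR, Benjamini-Hochberg adjusted p under 0.05), 5 higher and 3 lower. The background was high: 86.8% of 15629 tested genes passed, 43.1% higher and 43.7% lower, so a count of 8 of 8 is near the background share. The median log2 fold change of the 8 was 1.15, against -0.01 over all genes tested.

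**Figure D1:**
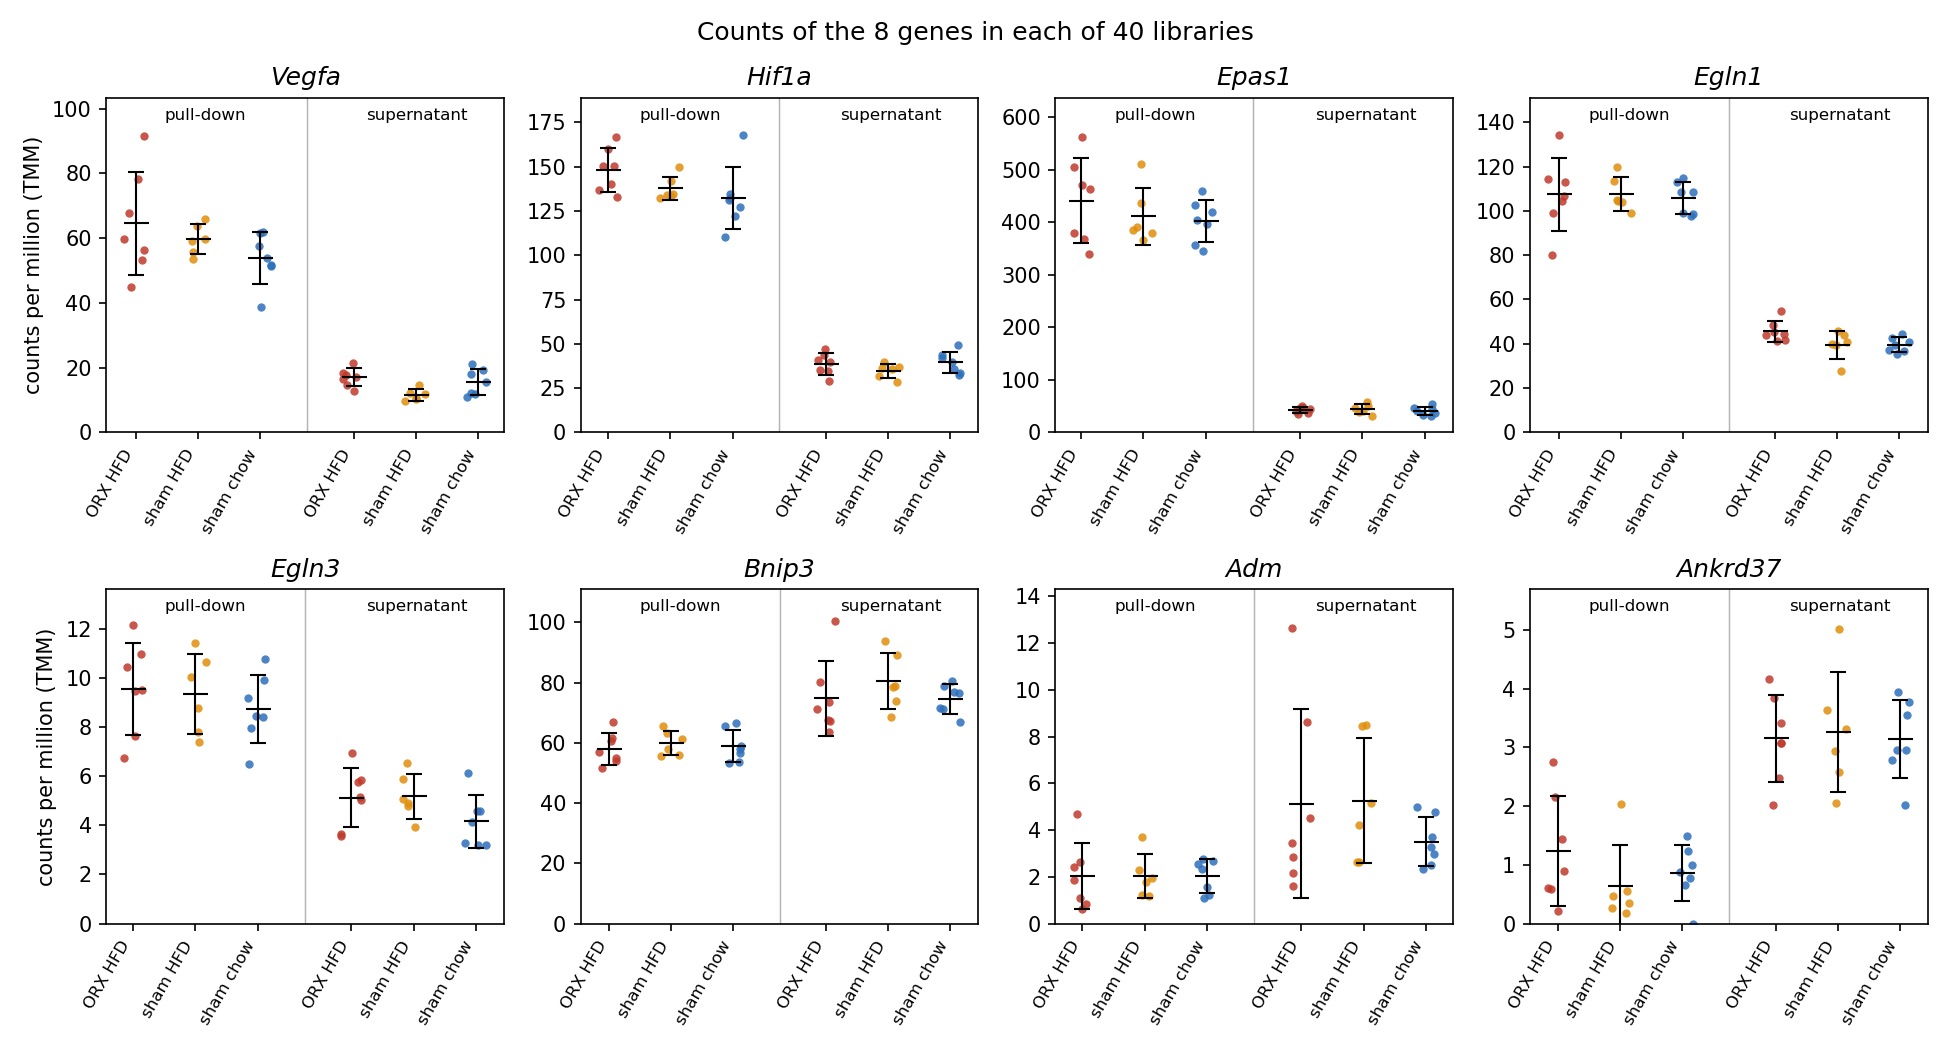
Each point is 1 library, in CPM on a linear axis from 0, for the 3 treatment groups in pull-downs (left) and supernatants (right); lines with caps give mean and SD (n = 7, 6 and 7). Epas1, Hif1a, Egln1 and Vegfa in pull-downs lie above every supernatant, and Ankrd37 and Adm are near the bottom of their scales in pull-downs.

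Epas1, which encodes HIF-2 alpha (chromosome 17, 86753700 to 86833410, plus strand, GENCODE M21), was the most abundant of the 8 genes in the pull-downs. Its lowest, median and highest levels were 339.8, 399.8 and 562 CPM in pull-downs, against 30.9, 42.6 and 57.0 CPM in supernatants. The lowest pull-down was far above the highest supernatant. The log2 fold change was 3.30 ± 0.08 (SE; adjusted p = 4.96e-32), in the top 5% of all tested genes at percentile 96.8. Hif1a, which encodes HIF-1 alpha (chromosome 12, 73901375 to 73947530, plus strand), had 110.4, 135 and 168 CPM in pull-downs, against 28.4, 36.5 and 49.1 CPM in supernatants. These ranges did not overlap either, and the log2 fold change was 1.89 ± 0.06 (adjusted p = 2.97e-28). The antisense gene Gm15283 lies across Hif1a and had 16 counts in all pull-downs together and 29 in all supernatants. The ratio of Epas1 to Hif1a tags was 3.02 ± 0.48 in pull-downs and 1.16 ± 0.31 in supernatants (SD, n = 20 each). It ran between 2.42 and 4.11 in pull-downs and between 0.643 and 1.78 in supernatants, without overlap.

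Of the sensors, Egln1 encodes PHD2, the main prolyl hydroxylase acting on HIF-1 alpha at normal oxygen (chromosome 8, 124908587 to 124949324, minus strand). It had 80.0, 106 and 134 CPM (lowest, median, highest) in pull-downs, against 27.5, 41.4 and 54.6 CPM in supernatants. The ranges were separate, with a log2 fold change of 1.37 ± 0.06 (SE; adjusted p = 2.11e-24). Egln3, which encodes PHD3 and is itself induced by hypoxia (chromosome 12, 54178981 to 54203860, minus strand), had 6.51, 9.34 and 12.2 CPM in pull-downs, against 3.20, 4.84 and 6.93 CPM in supernatants. Here 18 of 20 pull-downs exceeded the highest supernatant and the other 2 lay within the supernatant range. The log2 fold change was 0.94 ± 0.10 (adjusted p = 6.17e-12). Egln1 tags outnumbered Egln3 tags 12.0 ± 2.67 to 1 in pull-downs and 9.09 ± 2.25 to 1 in supernatants (SD, n = 20 each), and these ratios overlapped.

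Vegfa (chromosome 17, 46016993 to 46032369, minus strand) had 38.7, 58.4 and 91.5 CPM in pull-downs, against 9.58, 14.7 and 21.5 CPM in supernatants. All 20 pull-downs were above all 20 supernatants. The log2 fold change was 2.03 ± 0.09 (SE; adjusted p = 5.36e-24), a fold of 4.09 with a 95% interval of 3.62 to 4.63. Such separation of 20 from 20 libraries, seen for Epas1, Hif1a, Egln1 and Vegfa, was found in 18.3% of all tested genes with the pull-down higher and in 37.3% in either direction.

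The 3 targets that were lower in the pull-downs differed in size. The log2 fold changes of Bnip3, Adm and Ankrd37 stood at percentiles 39.3, 23.9 and 16.5 of all tested genes, so that of Bnip3 was near the middle. Bnip3, a mitochondrial outer-membrane protein that recruits mitochondria to autophagy (chromosome 7, 138890836 to 138909519, minus strand), had 51.6, 58.0 and 67.0 CPM in pull-downs, against 63.7, 75.2 and 100.3 CPM in supernatants. Of the pull-downs, 16 of 20 were below the lowest supernatant, and the log2 fold change was -0.38 ± 0.05 (SE; adjusted p = 1.47e-08). A change this small depends on how the fractions are scaled to each other, and it ran from -0.46 to -0.31 over the alternative settings. Adm, which encodes the vasodilator peptide adrenomedullin (chromosome 7, 110627661 to 110629820, plus strand), had 0.604, 1.92 and 4.69 CPM in pull-downs, against 1.62, 3.59 and 12.6 CPM in supernatants. Only 8 of 20 pull-downs lay below the lowest supernatant, and the log2 fold change was -1.15 ± 0.23 (adjusted p = 2.29e-05).

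Ankrd37, an ankyrin-repeat gene known as a HIF target (chromosome 8, 45996902 to 46005707, minus strand), had the lowest level of the 8 in the pull-downs. It had 0, 0.714 and 2.75 CPM in pull-downs, against 2.01, 3.07 and 5.02 CPM in supernatants. Of the pull-downs, 17 of 20 were below the lowest supernatant, and the log2 fold change was -1.86 ± 0.24 (SE; adjusted p = 4.62e-09). These levels rest on 0 to 30 counts per pull-down and 21 to 55 per supernatant. The 1 pull-down with no count, sham chow sample 12, allows a level of up to 0.273 CPM (3 counts, counting error only). The last 57 bases of Ankrd37 overlap the end of Ufsp2 on the opposite strand, which had 12048 counts over all pull-downs and 12392 over all supernatants. The strand setting of the counting is not given in the sources used here, and at a 3' end reads of these genes may not be told apart.

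Counted in tags, the order in the pull-downs was Epas1, Hif1a, Egln1, Vegfa, Bnip3, Egln3, Adm and Ankrd37, and in the supernatants Bnip3, Epas1, Egln1, Hif1a, Vegfa, Egln3, Adm and Ankrd37. Vegfa and Bnip3 did not differ beyond their spread in the pull-downs, where Vegfa was higher in 8 of 20 libraries. Adm was above Ankrd37 in 15 of 20 pull-downs. In the supernatants the levels of Epas1, Egln1 and Hif1a overlapped, with Epas1 above Egln1 in 10 of 20 and Egln1 above Hif1a in 16 of 20, and so did those of Egln3, Adm and Ankrd37. Bnip3 was above Epas1 in 20 of 20 supernatants, and its range did not overlap that of Epas1.

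Within each treatment group the fractions differed in the same direction. All 8 genes passed in orchiectomised HFD samples (76.9% of all tested genes), all 8 in sham HFD samples (75.8%) and 7 of 8 in sham chow samples (76%). The exception was Adm in sham chow samples, with a log2 fold change of -0.79 ± 0.40 (SE; adjusted p = 0.0714), beside -1.31 ± 0.39 in orchiectomised HFD and -1.36 ± 0.43 in sham HFD samples. Its difference between groups was not past the threshold (interactions below). For Vegfa the log2 fold change was 1.93 ± 0.15 in orchiectomised HFD, 2.38 ± 0.16 in sham HFD and 1.80 ± 0.15 in sham chow samples.

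**Figure D2:**
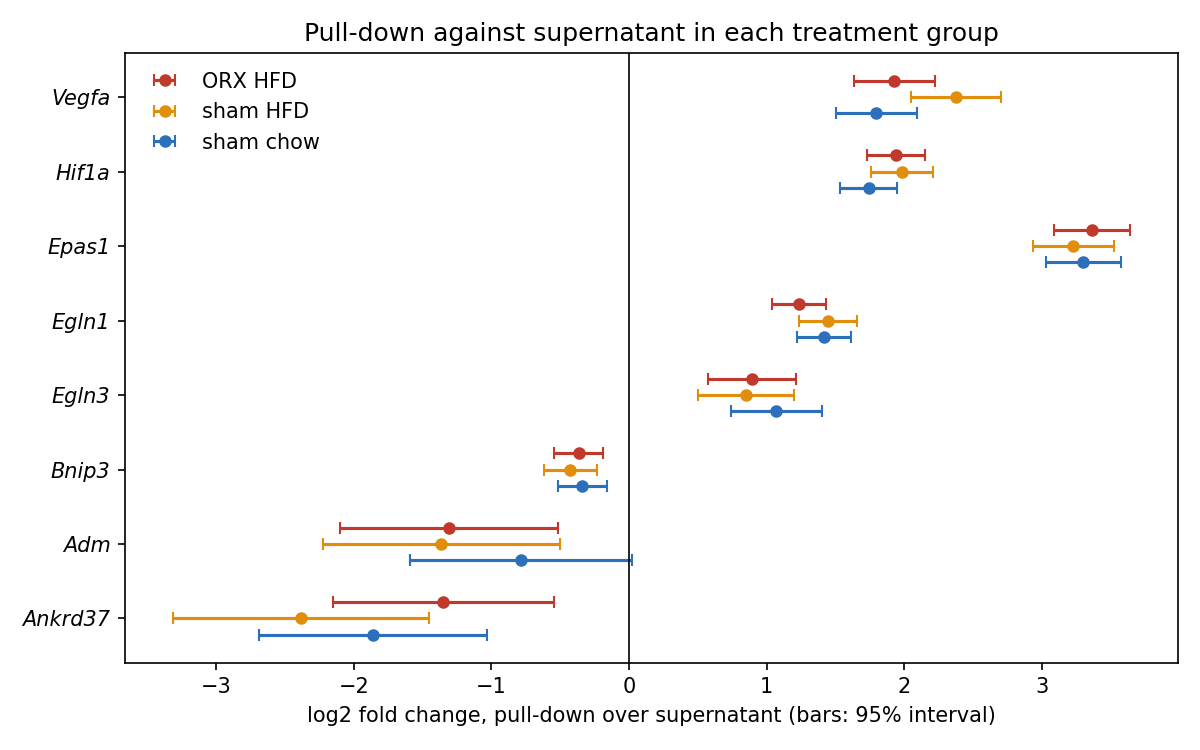
Log2 fold change of pull-down over supernatant for each gene in orchiectomised (ORX) HFD, sham HFD and sham chow samples, with 95% intervals. The 5 upper genes are above 0 and Bnip3 and Ankrd37 below 0 in each group, while the interval of Adm in sham chow samples (-1.59 to 0.02) reaches 0.

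Orchiectomy and diet were compared within each fraction, and no member of the set passed the test in any of these 6 comparisons. In the pull-downs, 0 of 8 passed for orchiectomised HFD against sham HFD, 0 of 8 for sham HFD against sham chow and 0 of 8 for orchiectomised HFD against sham chow. The share of all 14059 tested genes that passed was 0% (918 genes, 6.53%, at an unadjusted p under 0.05), 0% (240 genes, 1.71%) and 0.0142% (1566 genes, 11.1%) in the same order. In the supernatants 0 of 8 passed in each, with 0% of 14628 genes passing in all 3 comparisons (439, 206 and 331 genes, or 3%, 1.41% and 2.26%, at an unadjusted p under 0.05). With DESeq2 the counts over all genes were 11, 0 and 12 in the pull-downs and 3, 0 and 1 in the supernatants, and no member was among them. At an unadjusted p under 0.05 stood 2 members in pull-downs of orchiectomised HFD against sham chow samples, 1 in each of the supernatant comparisons of orchiectomy and of diet, and 0 in the other 3.

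In the supernatants the member with the smallest p was Vegfa, for orchiectomy. Its lowest, median and highest levels were 12.9, 17.1 and 21.5 CPM in orchiectomised HFD samples, 9.58, 11.2 and 14.7 CPM in sham HFD samples and 10.9, 15.5 and 21.0 CPM in sham chow samples. Of the orchiectomised samples, 6 of 7 were above the highest sham HFD sample and the seventh lay within its range. The log2 fold change of orchiectomised HFD over sham HFD was 0.56 ± 0.16 (SE; 95% interval 0.23 to 0.89; unadjusted p = 0.00178, adjusted p = 0.945). For sham HFD over sham chow it was -0.44 ± 0.16 (unadjusted p = 0.0104, adjusted p = 0.904), with 3 of 6 sham HFD samples below the lowest chow sample. Both comparisons share the sham HFD libraries, and orchiectomised HFD over sham chow gave 0.12 ± 0.15 (adjusted p = 1.00). Beside this, all 14 astrocyte markers had positive log2 fold changes in the supernatants of orchiectomised over sham HFD samples, with a median of 0.34 and 0 called. Their summed levels were 1535 to 3991 CPM in orchiectomised HFD, 1335 to 3944 CPM in sham HFD and 1154 to 3328 CPM in sham chow supernatants. The means were 2531 ± 1087, 2053 ± 961 and 1819 ± 853 CPM (SD) in the same order. For diet the mean sum was higher in sham HFD than in sham chow, the other direction from Vegfa, with overlapping ranges. The part of astrocyte message in the Vegfa values was not tested. Without the 5 samples whose pull-downs were rich in endothelial markers, a comparison chosen after seeing the data, the orchiectomy value for Vegfa was 0.42 (unadjusted p = 0.0469). Across the 20 supernatants, as deviations from group means, Vegfa and the astrocyte marker sum gave r = 0.51 (rho = 0.51, permutation p = 0.0222 and 0.0230, adjusted 0.0646 and 0.0820 over 32 relations; r = 0.48 without the 2 farthest samples and 0.35 without the 4 samples rich in Gm42418). This relation did not pass after adjustment.

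In the pull-downs Vegfa and Hif1a came nearest to the threshold. Vegfa had 44.9, 59.7 and 91.5 CPM in orchiectomised HFD samples, 53.7, 59.5 and 66.0 CPM in sham HFD samples and 38.7, 53.8 and 61.9 CPM in sham chow samples. The groups overlapped, with 3 of 7 orchiectomised samples above the highest chow sample. The log2 fold change of orchiectomised HFD over sham chow was 0.27 ± 0.12 (SE; unadjusted p = 0.0403, adjusted p = 0.437). Hif1a had 133, 150.4 and 167 CPM in orchiectomised HFD samples, 132, 134 and 149.8 CPM in sham HFD samples and 110.4, 131 and 168 CPM in sham chow samples. No orchiectomised sample exceeded the highest chow sample, and the log2 fold change was 0.17 ± 0.08 (unadjusted p = 0.0405, adjusted p = 0.437). Beside these, all 11 endothelial markers had positive log2 fold changes in the same pull-down comparison, with a median of 1.04 and 0 called. Without the 5 samples rich in these markers the value was 0.15 for Vegfa (unadjusted p = 0.246) and 0.18 for Hif1a (unadjusted p = 0.0519). Within the other 15 pull-downs, as deviations from group means, r with the endothelial marker sum was 0.40 for Vegfa (rho = 0.29, permutation p = 0.137 and 0.300) and -0.10 for Hif1a (rho = -0.09, permutation p = 0.705 and 0.744).

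For the other members the intervals of the treatment effects differed in width. In the pull-downs of orchiectomised HFD over sham HFD samples, the log2 fold change of Epas1 was 0.12 (95% interval -0.11 to 0.35). For Epas1 it was 0.047 without sample 22 and 0.0059 without all 5 samples rich in endothelial markers. That of Bnip3 was -0.03 (-0.19 to 0.13). That of Egln1 was 0.01 (-0.17 to 0.20) and that of Egln3 was 0.05 (-0.26 to 0.36). The interval of Adm, on low counts, was wider, from -0.77 to 0.83. Ankrd37 had the largest estimate of the 8, 1.00 ± 0.60 (SE; interval -0.23 to 2.24, adjusted p = 0.742). Its lowest, median and highest levels were 0.207, 0.903 and 2.75 CPM in orchiectomised HFD pull-downs, against 0.178, 0.406 and 2.03 CPM in sham HFD pull-downs, on 2 to 30 and 2 to 19 counts. The groups overlapped, and the highest libraries of both groups, samples 22 and 1, were among the 5 rich in endothelial markers. Without sample 1 the estimate was 1.71 (adjusted p = 0.248) and without sample 22 it was 0.72, and without all 5 samples it was 1.25 (adjusted p = 0.689).

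**Figure D3:**
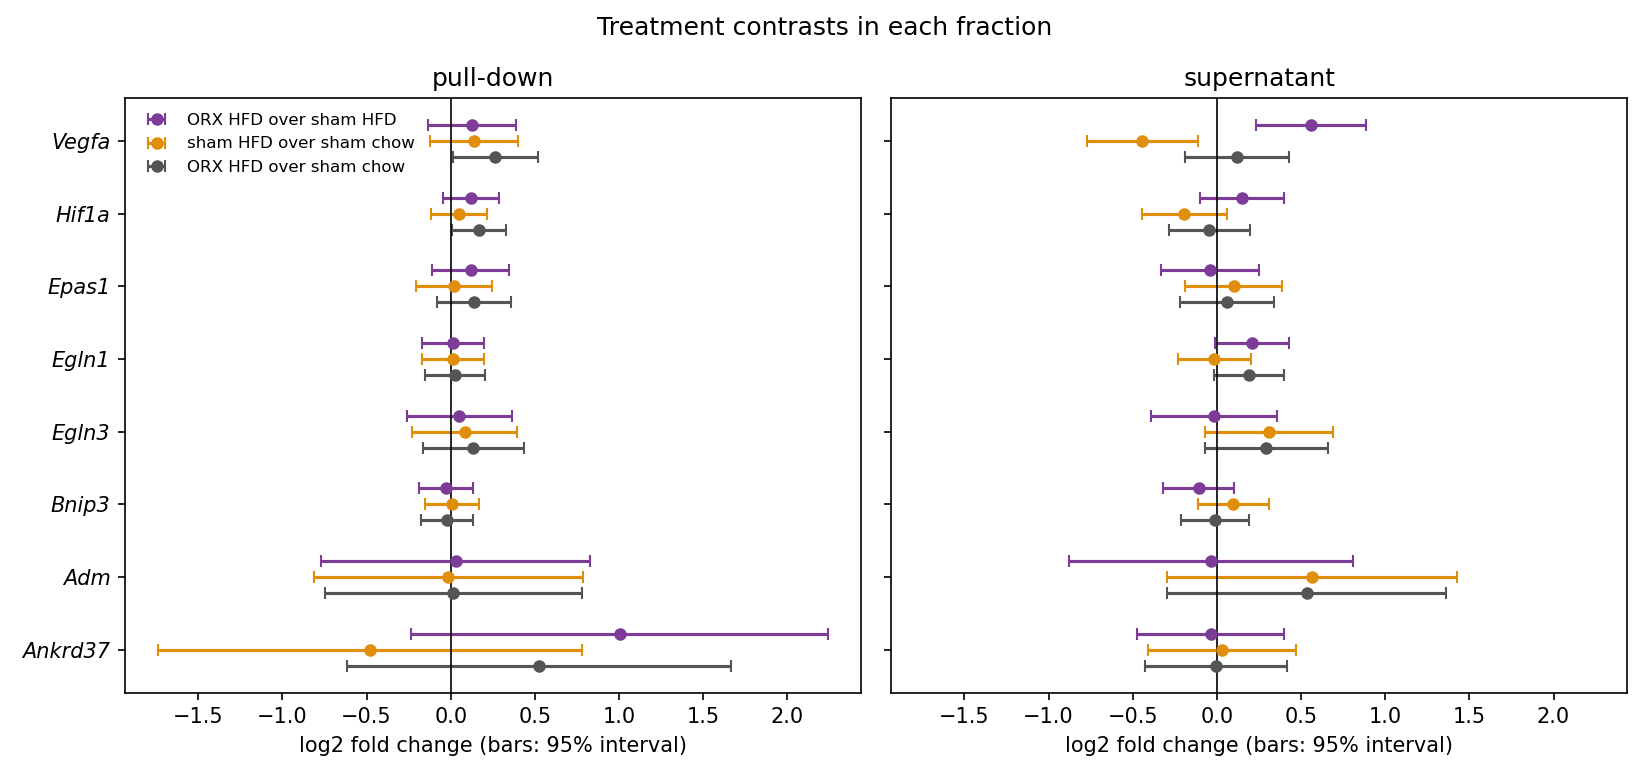
Log2 fold changes with 95% intervals for the 3 treatment comparisons in pull-downs (left) and supernatants (right). The intervals that leave out 0, those of Vegfa in the supernatants for orchiectomy (0.23 to 0.89) and for diet (-0.77 to -0.11) and of Vegfa and Hif1a in the pull-downs for both together, belong to values that did not pass after adjustment over all genes.

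Whether a treatment effect differed between the fractions was tested as an interaction in 1 fit of all 40 libraries. None of the 8 genes passed for orchiectomy (0.0064% of all 15629 genes, 4.43% at an unadjusted p under 0.05), for diet (0%, 2.55%) or for both together (0.0128%, 6.66%). At an unadjusted p under 0.05 stood Vegfa alone of the 8 for orchiectomy and for diet, and none for both together. Its interaction, pull-down minus supernatant, was -0.45 ± 0.21 on the log2 scale for orchiectomy (SE; unadjusted p = 0.0402, adjusted p = 0.941) and 0.58 ± 0.21 for diet (unadjusted p = 0.00920, adjusted p = 0.970). For Adm the diet interaction was -0.58 ± 0.58 (adjusted p = 0.970). DESeq2 passed 6, 4 and 7 of all genes for these interactions, and none of the 8.

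The members were then compared with each other from library to library, as deviations of log2(CPM + 0.5) from their group means, over 20 libraries per fraction and 56 pairs in all. In the pull-downs none of 28 pairs passed a permutation test with Benjamini-Hochberg adjustment, and r ran between -0.54 and 0.53. In the supernatants 3 of 28 pairs passed. Vegfa and Hif1a rose and fell together (r = 0.66, rho = 0.69, permutation p = 0.00174 and 0.00087, adjusted 0.0325 and 0.0263), and r was 0.55 without the 2 libraries farthest from the median of Vegfa. Hif1a and Adm ran against each other (r = -0.67, rho = -0.69, permutation p = 0.00122 and 0.00116, adjusted 0.0325 and 0.0263; r = -0.57 without the 2 farthest). Bnip3 and Adm ran together (r = 0.77, rho = 0.67, permutation p = 7.00e-05 and 0.00141, adjusted 0.00392 and 0.0263; r = 0.60 without the 2 farthest). The last relation rests on 4 supernatants with high Adm. Orchiectomised samples 2 and 6 had 12.6 and 8.64 CPM of Adm and sham HFD samples 16 and 20 had 8.51 and 8.43 CPM, against 1.62 to 5.16 CPM in the other 16. Without these 4, a choice made after seeing the data, r was 0.17 for Bnip3 and Adm (rho = 0.09, permutation p = 0.527), -0.59 for Hif1a and Adm (permutation p = 0.0180, adjusted 0.0993) and 0.81 for Vegfa and Hif1a (permutation p = 0.000170, adjusted 0.00187). The part of library composition in these pairs was not tested. Sham chow supernatant 12 had the highest Hif1a (49.1 CPM) and mitochondrial share (27.8%). Sham chow supernatants 8 and 19 had 43.6 CPM at 24.7% and 32.6 CPM at 20.4%. Orchiectomised supernatants 14 and 6 had 47.2 CPM at 25.2% and 28.9 CPM at 19.8%. Orchiectomised supernatants 2 and 22 went the other way, with 34.7 CPM at 26.7% and 43.8 CPM at 21.2%. How Hif1a goes with this share over the 20 supernatants was not tested.

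**Figure D4:**
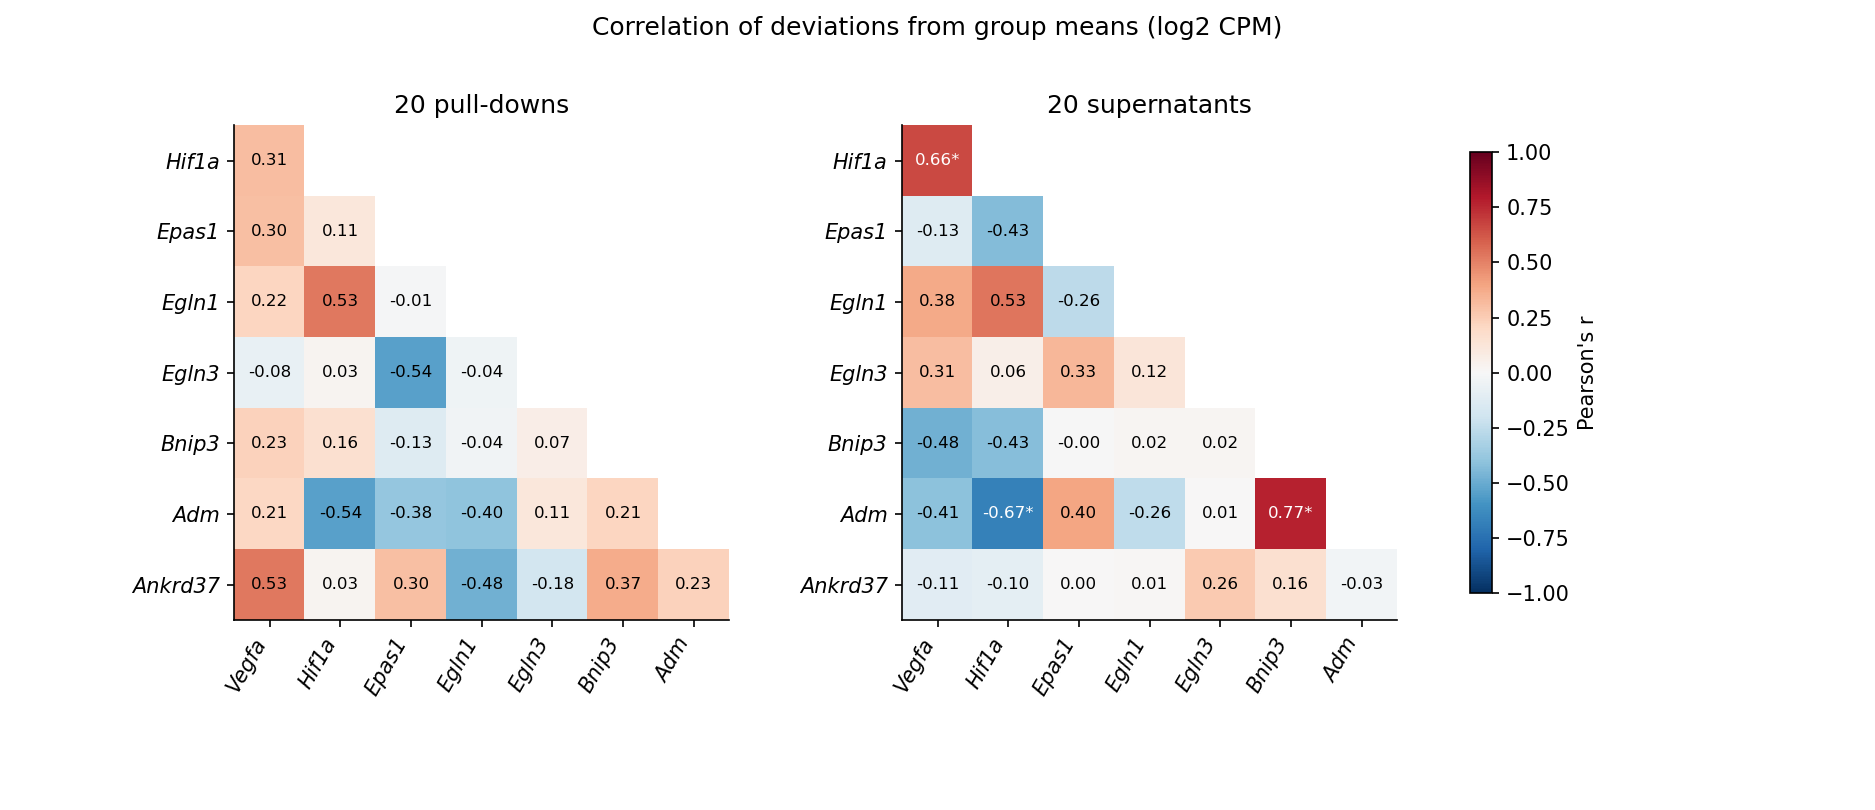
Pearson's r between members over 20 pull-downs (left) and 20 supernatants (right), from deviations from group means; an asterisk marks an adjusted permutation p under 0.05. The 3 marked pairs, Vegfa with Hif1a, Hif1a with Adm and Bnip3 with Adm, are all in the supernatants.

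Epas1 is also a gene of endothelial cells, and its level was set beside the marker sums, as were those of the other members, in 32 relations chosen after seeing the data, of which 7 passed on r and 5 on both r and rho. Among them were 2 and 1 relations with endothelial markers over all 20 pull-downs, those of Epas1 and Ankrd37, for which no r over the 20 is given because 5 pull-downs stood apart. In the 5 pull-downs rich in endothelial markers Epas1 had 458 to 562 CPM, against 339.8 to 471 CPM in the other 15. Within the 15, r was 0.17 (rho = 0.20, permutation p = 0.545). Within the supernatants, Epas1 and the endothelial marker sum gave r = 0.67 (rho = 0.60, permutation p = 0.00140 and 0.00583, adjusted 0.0112 and 0.0373; r = 0.66 without the 2 farthest). Epas1 and the astrocyte marker sum gave a like value there, r = 0.63 (rho = 0.62, permutation p = 0.00324 and 0.00416, adjusted 0.0173 and 0.0333; r = 0.53 without the 2 farthest and 0.43 without the 4 samples rich in Gm42418). Hif1a in the supernatants ran against the endothelial marker sum on r alone (r = -0.65, rho = -0.50, permutation p = 0.00209 and 0.0260, adjusted 0.0134 and 0.0832; r = -0.62 without the 2 farthest). Hif1a in the pull-downs went with the astrocyte marker sum (r = 0.74, rho = 0.65, permutation p = 0.00035 and 0.00240, adjusted 0.00560 and 0.0332; r = 0.70 without the 2 farthest), and so did Egln1 (r = 0.72, rho = 0.75, permutation p = 0.00081 and 0.0002, adjusted 0.00864 and 0.00640; r = 0.51 without the 2 farthest). Between the fractions, the log2 fold change of Epas1 was 3.29 without the 5 samples (adjusted p = 6.37e-26).

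**Figure D5:**
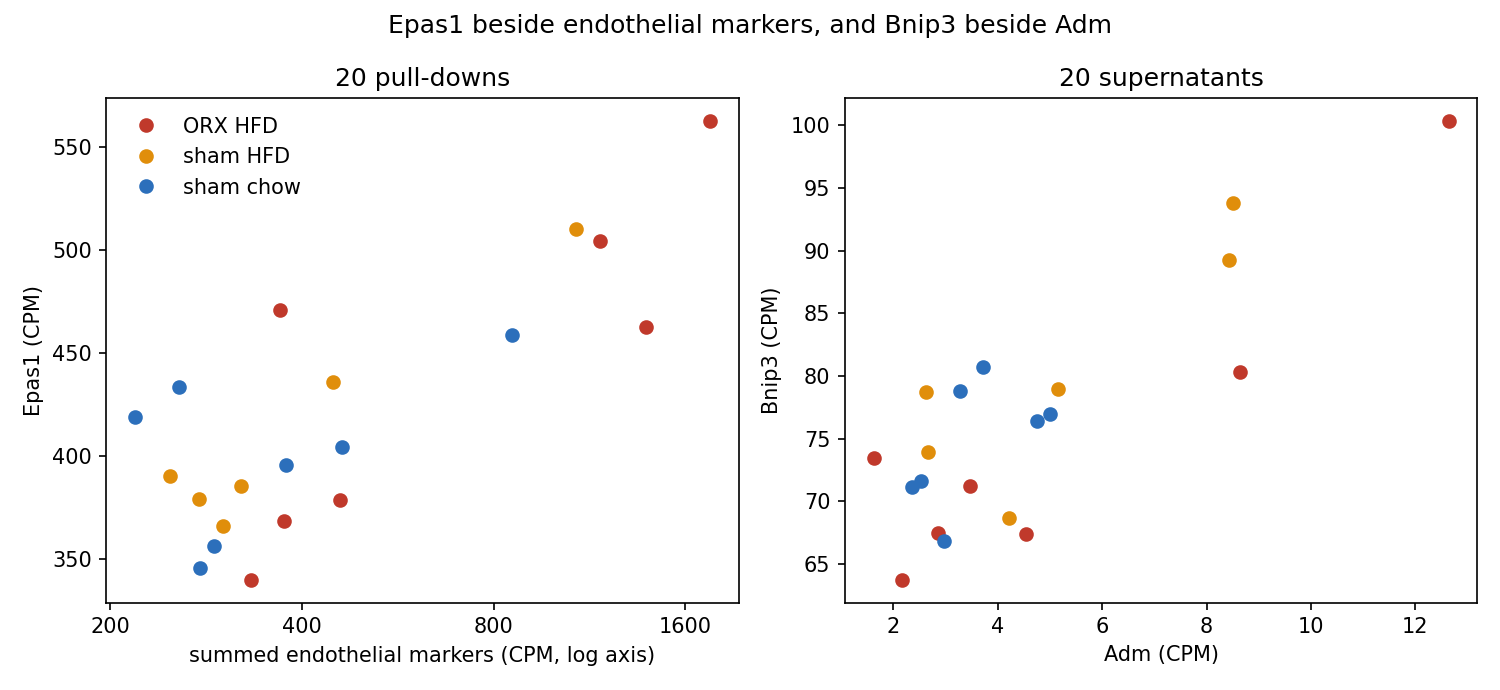
Left, Epas1 (CPM) against summed endothelial markers (CPM, log axis) in 20 pull-downs; the 5 libraries at 856 CPM of markers or more have 458 to 562 CPM of Epas1. Right, Bnip3 against Adm (CPM) in 20 supernatants, with 4 libraries above 8 CPM of Adm; colours give the treatment group.

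The genes most like each member over the 40 libraries were found by the root mean square difference of centred log2 CPM among 10385 candidates. Each gene was centred over both fractions together, so the difference between the fractions enters the distance. The log2 fold change between the fractions was 2.03 for Vegfa and 2.04 for Acbd5, and 1.89 for Hif1a and 1.92 for Sbf2. The matches therefore do not show genes that vary with a member within a fraction. For Epas1 they were Smpdl3a (0.21) and Gna13 (0.23), for Hif1a Sbf2 (0.16) and Vezf1 (0.16), for Vegfa Acbd5 (0.23) and Desi2 (0.23) and for Egln1 Stt3b (0.15) and Itm2b (0.16). For Egln3 they were Mtap (0.25) and Kdm5c (0.26) and for Bnip3 Ppp2ca (0.12) and Arf1 (0.13). Candidates had a mean of at least 5 CPM, and the means of Adm and Ankrd37 were below 5 CPM in both fractions. Genes at their own level were therefore not among the candidates. The nearest candidates were Arpc1b for Adm (0.44) and Lrfn1 for Ankrd37 (0.59). Whether a gene of like level lies nearer to either was not tested.

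Further genes of the pathway are counted beside the share of all genes, of which 86.8% passed between the fractions, 43.1% higher and 43.7% lower. Of 16 HIF pathway components tested, 6 were higher and 8 lower in the pull-downs, near that share, with a median log2 fold change of -0.09 against -0.01 over all genes. Vhl, the substrate receptor of the ubiquitin ligase that recognises hydroxylated HIF-alpha, averaged 114 ± 13.2 CPM in pull-downs and 28.6 ± 3.79 CPM in supernatants (SD, n = 20 each), a log2 fold change of 2.00. Hif3a, which encodes a further alpha subunit, was low but higher in pull-downs at 2.05 ± 0.985 CPM, against 0.293 ± 0.172 CPM in supernatants. The partner subunits Arnt and Arnt2 were higher by 0.44 and 0.51 on the log2 scale, and the coactivators Ep300 and Crebbp by 0.81 and 0.64. Cited2, which competes with HIF-alpha for those coactivators, was lower in pull-downs at 10.1 ± 2.70 CPM, against 31.3 ± 8.66 CPM in supernatants. The prolyl hydroxylase gene Egln2, at -0.58, went the other way from Egln1 and Egln3. The chaperones Hsp90aa1 (-1.51) and Hsp90ab1 (-0.68), the ligase subunit Rbx1 (-0.37) and Rack1 (-0.31) were also lower. Hif1an, the asparagine hydroxylase that limits HIF transcriptional activity, had 0.01 ± 0.07 (SE; adjusted p = 0.940), and Eloc had -0.08 ± 0.05 (adjusted p = 0.156).

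Of 9 further VEGF ligands and receptors, 7 were higher and 1 lower in the pull-downs, with a median log2 fold change of 1.39. Over all genes 43.1% were higher and 43.7% lower, so the number passing is near the background of 86.8%. Among ligands, Vegfb was at 228 ± 31.4 CPM in pull-downs and 86.8 ± 7.47 CPM in supernatants, and Pgf and Vegfc had log2 fold changes of 2.74 and 1.10. Vegfd had 0.13 ± 0.34 (SE; adjusted p = 0.723). The receptors Flt1 (3.12), Kdr (2.25) and Flt4 (1.12) were higher, as was the coreceptor Nrp1 (1.43), while Nrp2 was lower (-1.30). Flt1 and Kdr are also in the endothelial marker list, which was higher in the pull-downs in 10 of 11 genes, and Flt1 averaged 253 ± 208 CPM in pull-downs and 26.9 ± 4.00 CPM in supernatants (SD, n = 20 each). The part of endothelial message in these values was not tested.

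Adrenomedullin acts through the receptor encoded by Calcrl together with a RAMP protein. Of 6 genes tested, 3 were higher and 2 lower, near the 86.8% of all genes that passed. Ramp1 averaged 323 ± 32.8 CPM in pull-downs and 20.7 ± 10.5 CPM in supernatants, and Ramp2, the RAMP of the main adrenomedullin receptor, 19.2 ± 8.08 CPM in pull-downs and 4.79 ± 0.970 CPM in supernatants (SD, n = 20 each). Ackr3, a scavenger receptor that can bind the peptide, had a log2 fold change of 2.48. Ramp3 was lower, at 1.55 ± 0.641 CPM in pull-downs and 34.0 ± 14.3 CPM in supernatants, and the related ligand gene Calca was lower at -3.39. Calcrl had 0.21 ± 0.19 (SE; adjusted p = 0.296). The ligand gene Adm and Ramp3 were lower in pull-downs, while Ramp1 and Ramp2 were higher.

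Of 13 mitophagy genes and BNIP3 relatives, 8 were higher and 5 lower, beside 43.1% and 43.7% of all genes, with a median of 0.41. Bnip3l, the closest relative of Bnip3 and likewise a mitophagy receptor, was higher at 0.39 ± 0.06 (SE; adjusted p = 1.20e-07), while Bnip3 was lower at -0.38. Pink1, a kinase that marks damaged mitochondria, was at 474 ± 66.3 CPM in pull-downs and 225 ± 39.4 CPM in supernatants, and Park2, which encodes the ligase parkin, was lower at -0.32. The receptors Bcl2l13 (0.93) and Fundc1 (0.90), the binding partner Bcl2 (3.15) and Bnip2 (1.53), listed as a relative, were higher. Bcl2l1 (-0.83) and Gabarapl1 (-1.52) were lower.

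Of 44 further hypoxia-inducible genes, 39 passed the filter on low counts, 23 of them higher and 14 lower, beside 43.1% and 43.7% of all genes, with a median of 0.33. The collagen hydroxylase genes Plod2 (2.66), Plod1 (2.03) and P4ha1 (2.12), the lipase inhibitor gene Angptl4 (3.62), the adenylate kinase gene Ak4 (1.99) and the transcriptional repressor gene Bhlhe40 (1.91) were higher. The neuronal glucose transporter gene Slc2a3 (-2.63), Car12 (-3.23), Anln (-2.03), Loxl2 (-1.99), Ero1l (-1.09) and Aldoa (-0.69) were lower. Hk2 (-0.21 ± 0.11) and Pfkl (-0.15 ± 0.10) did not pass. With 86.8% of all genes passing, calls on both sides are no feature of this list.

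In the treatment comparisons 0 genes of any of these 5 lists passed, in either fraction or in the interactions. The smallest unadjusted p-values in pull-downs belonged to Ak4 for orchiectomy (log2 fold change 0.29 ± 0.08, SE; unadjusted p = 0.00198, adjusted p = 0.722) and to Nrp1 for orchiectomised HFD against sham chow (0.26 ± 0.08, unadjusted p = 0.00247, adjusted p = 0.369). Bnip3l had 0.29 ± 0.11 for orchiectomy in the pull-downs (adjusted p = 0.741), where Bnip3 had -0.03 ± 0.08. Calcrl had 0.55 ± 0.24 for orchiectomy in the supernatants (adjusted p = 0.945). The median in the pull-downs for orchiectomy was 0.30 for the VEGF list, which shares Flt1 and Kdr with the endothelial markers. It was 0.03 for the further hypoxia-inducible genes and -0.01 for the HIF components, against 0.01 over all genes tested and 0.08 over the 8 members. Medians of the adrenomedullin and mitophagy lists are not given here, so the place of 0.30 among the 5 lists is not shown.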

How the data were processed

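Estimated counts per gene in the count table deposited by the authors were used. The submitters' processing notes name Trim Galore 0.6.4, Salmon 1.9.0 and the build GRCm38, without their order; annotation and strand setting were not found in these sources. Per the labels' protocols, poly(A) RNA was bead-purified and libraries were made with the QuantSeq 3' FWD kit. The authors also deposited a signal table under the name TPM. Divided by 1 factor per library (the median ratio to the counts), it equals the counts within 0.01 for 25089 of 26783 shared symbols, so it was read as counts scaled per library, not as TPM, and served as an alternative only. Of the non-zero counts, 12.7% are not whole, and counts were rounded.

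Differences were tested by quasi-likelihood in edgeR 4.0.16 (R 4.3.3; TMM, filterByExpr with a minimum count of 10, robust): all 40 libraries with 6 group means for the fractions and interactions, and the 20 libraries of a fraction with 3 group means for treatments. P-values were adjusted over all genes tested (Benjamini-Hochberg), and calls were made under 0.05. SE came from the F statistic. Correlations used 100000 permutations. All 8 genes passed the filter in each fit. Counting intervals cover counting error only.

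The members, lists and tests were chosen with earlier results of these data known. From each list the text names up to 6 genes with the smallest p among those past the threshold in each direction, or the 2 smallest where none passed; for likeness, the 2 genes nearest to each member. List genes beyond that, given to complete a count or beside a relative, were chosen after their values were seen. Adm2 was not analysed here. The scripts were tested on simulated data. Alternatives were DESeq2 1.42.0, limma 3.58.1 (voom, and log2(value + 1) of the signal), other scaling, no filter, libraries left out and a block on sample number. Between the 114 pairs of libraries within a group the SD of log2 differences over genes was 0.43 to 0.98, so no library was a copy of another.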

Additional observations from a re-analysis of the deposited data

Results flagged for a closer look

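In 3 of 48 sets (8 genes in 6 groups) 1 library lay far from the others of its group by Dixon's criterion, which chance gives in about 1 in 20 groups. Hif1a was 168 CPM in the pull-down of sham chow sample 21, against 110.4 to 134 CPM in the other 6. Egln1 was 27.5 CPM in the supernatant of sham HFD sample 20, against 39.5 to 45.5 CPM in the other 5. Ankrd37 was 2.03 CPM in the pull-down of sham HFD sample 1, against 0.178 to 0.546 CPM in the other 5; this library was also rich in Gm42418 and in endothelial markers. The 5 pull-downs rich in endothelial markers had 0.207 to 2.75 CPM of Ankrd37, against 0 to 1.43 CPM in the other 15, within which r with the marker sum was 0.25 (rho = -0.06, permutation p = 0.374 and 0.833). The part of Gm42418 in this value was not tested.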

How the results depend on the processing

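All 8 members kept their direction and their call between the fractions in every alternative run, and no member gained a call in any treatment comparison or interaction, whether with DESeq2, limma voom, the second table, other size factors, no filter, 1 fit of all libraries, only the 2 groups compared, samples rich in Gm42418 or in endothelial markers left out, or any 1 sample left out. Ankrd37 was not tested in the fit of only the 2 groups for 2 pull-down comparisons. Leaving out each sample number in turn, the orchiectomy value of Vegfa in the supernatants ran from 0.50 to 0.64 and its diet value from -0.52 to -0.36. Adm between the fractions ran from -1.22 to -1.04 and Ankrd37 from -2.13 to -1.76. Over the other alternatives Ankrd37 ran from -2.33 without the samples rich in endothelial markers to -1.21 with limma on log2(value + 1) of the second table, where the added 1 lowers the change of low genes. Hif1a in the pull-downs, orchiectomised HFD over sham chow, ran from 0.14 to 0.23 and was highest without sample 21.

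Counts over all genes moved more. For orchiectomised over sham HFD pull-downs 0 passed in edgeR, 11 with DESeq2, 6 in 1 fit of all libraries, 4 without samples rich in Gm42418, 2 without those rich in endothelial markers and 0 to 5 with 1 sample left out, the most without sample 1. For orchiectomised HFD over sham chow pull-downs 2 passed in edgeR, 12 with DESeq2, 6 in 1 fit, 1 with limma voom, 1 with the second table and 2 to 4 with 1 sample left out, the most without sample 6. In the supernatants the 0 for orchiectomy and the 0 for orchiectomised HFD over sham chow became 3 and 1 with DESeq2 and 1 and 1 in 1 fit; without samples rich in endothelial markers orchiectomy had 1, and with 1 sample left out the second had 0 to 2. For the interactions of orchiectomy, diet and both together, 1, 0 and 2 passed in edgeR, 6, 4 and 7 with DESeq2 and 0, 0 and 1 with limma voom or the second table. The cause was not tested.

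With the sample number as a replicate block, 8 members passed between the fractions and 0 in the interactions, and the orchiectomy interaction had 0 genes in place of 1. Same-numbered libraries deviated together with a median r of 0.03 (-0.07 to 0.15), over 0.1 in 5 of 20 pairs. Among the 20 pull-downs, 6 correlated best with the supernatant of their own number. Sample 6 had the highest summed red blood cell markers in both fractions, 6737 CPM in its pull-down and 14732.5 CPM in its supernatant. These low correlations do not show that the fractions are unpaired. The main fits did not use the pairing, and only the block fit did. For treatments within a fraction no block could be fitted, since those groups share no sample numbers. Depth limits Ankrd37 and Adm, with as few as 0 and 5 counts in a pull-down.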

Other observations

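Set beside each other under the same sample number, a comparison of 8 relations chosen after seeing the data, the deviations of Adm in pull-down and supernatant gave r = 0.56 (rho = 0.56, permutation p = 0.0101 and 0.0105 over 20 samples, adjusted 0.0812; r = 0.46 without the 2 farthest samples). Sample 6 had the highest Adm of all pull-downs, 4.69 CPM, and 8.64 CPM in its supernatant, and sample 16 had 3.73 CPM and 8.51 CPM. For Ankrd37 r was -0.48 (rho = -0.44, permutation p = 0.0320, adjusted 0.128). No relation of the 8 passed after adjustment, and the other 6 had r between -0.10 and 0.25.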
